A study of Mus musculus with 30 samples.

Results

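The matrix metalloproteinase (Mmp), Adamts and tissue inhibitor of metalloproteinase (Timp) genes were followed in mouse osteoclast cultures grown on bone slices. Every protein-coding gene whose symbol was Mmp, Adamts or Timp followed by digits was taken, and the Adamtsl genes were left out. The rule found 45 of the 45706 genes in the tables, of which 22 were Mmp, 19 Adamts and 4 Timp genes. The rule used symbols alone. Mmp1a was left out because the annotation lists it as a polymorphic pseudogene.

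The Mmp genes encode zinc proteases that are made as inactive precursors and cut collagens and other matrix proteins once their propeptide is removed. The Adamts proteases mature procollagens or cut proteoglycans and other matrix glycoproteins, and the Timp proteins bind and block these enzymes. Osteoclasts dissolve bone mineral with acid and digest its collagen mostly with cathepsin K, and Mmp9 is a known product of the osteoclast itself.

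The cultures were started from bone marrow-derived macrophages of C57BL/6J background and were given the cytokines that drive osteoclast formation, M-CSF at 25 ng/ml and RANKL at 100 ng/ml. Terc-/- cells lack the RNA template of telomerase. Terc-/- libraries came from mice of 1 and 6 months and wild-type (WT) libraries from mice of 1, 6 and 20 months, all harvested once large multinucleated cells had formed. WT libraries of 6 and 20 months were also taken at 2 days. A further 3 groups at the large-cell stage carry in their titles the words 519 (Terc-/-, 1 and 6 months) or gaiwei (WT, 1 month). The labels do not say what these words mean, and the libraries are called marked here. Each of the 10 groups had 3 libraries. Whether the 3 came from different mice or dishes is not stated. The p-values reflect only how far libraries of the same group lie apart, which may be technical. In the main fit this spread was pooled over all 10 groups and not taken from the compared groups alone.

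Levels are given in TPM, a unit of transcript abundance that is divided by gene length and can therefore be compared between genes. Read depth was unknown, because every library is brought to the same total. Osteoclast markers checked the label: the sum of 9 markers, among them Acp5 and Ctsk, lay at 142.3 to 341 TPM in the marked libraries, against 3641 to 24340 TPM in the unmarked large-cell ones. It lay at 127.6 to 528 TPM at 2 days, so the marked libraries were at the 2-day level although they are labelled as large cells. Terc was listed at 0 in every Terc-/- library but reached no more than 1.13 TPM in any WT library and was at 0 in most, so it did not check the genotype. The 3 unmarked WT libraries of 1 month had 46.6 to 84.1 TPM of Xist, an RNA made by the inactive X chromosome, and all others 0.254 TPM or less, so comparisons with those 3 also set a female against a male pattern. Eif2s3y, a gene of the Y chromosome, was at 0 TPM in those 3 libraries. It lay at 12.1 to 19.2 TPM in the 1-month Terc-/- libraries, marked and unmarked, and at 40.8 to 82.0 TPM in all others. The 1-month Terc-/- libraries thus differ from the 6-month ones in this check, and why was not tested. One library, replicate 2 of WT large cells at 6 months, was unlike its group: its correlation with its fellow replicates averaged 0.909, while the other libraries reached 0.932 to 0.991.

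Of the 45 genes, 25 reached 1 TPM or more when averaged over the 30 libraries and were tested, namely 13 Mmp, 9 Adamts and 3 Timp genes. A group of 8 genes averaged over 100 TPM. They were the inhibitor genes Timp1 at 1922 TPM, Timp2 at 354 TPM and Timp3 at 289 TPM, the macrophage elastase gene Mmp12 at 1563 TPM, the gelatinase gene Mmp9 at 1347 TPM and the membrane-type gene Mmp14 at 302 TPM. The collagenase genes Mmp8 and Mmp13 averaged 138 and 127 TPM. The other gelatinase gene, Mmp2, averaged 34.6 TPM. The most abundant Adamts genes were Adamts10, whose product associates with fibrillin, at 15.4 TPM and the aggrecanase gene Adamts4 at 13.5 TPM. The 20 genes below the filter included Timp4, the enamel protease gene Mmp20, the von Willebrand factor protease gene Adamts13 and the matrilysin gene Mmp7, and their highest single value was 3.76 TPM, in Mmp16. Mmp20 and Adamts18 were listed at 0 in all 30 libraries. A gene is said to be called, higher or lower, where its Benjamini-Hochberg adjusted p in limma was at most 0.05, and its change is given as a difference of log2(scaled TPM + 1).

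On GRCm38, Mmp9 lies on chromosome 2 from 164940780 to 164955850 on the + strand and Mmp14 on chromosome 14 from 54431612 to 54445364 on the + strand. The inhibitor genes are apart from each other: Timp1 lies on chromosome X from 20870166 to 20874735 (+), Timp2 on chromosome 11 from 118301069 to 118355740 (-) and Timp3 on chromosome 10 from 86300372 to 86349506 (+). Adamts4 lies on chromosome 1 from 171250421 to 171260637 (+) and Adamts2 on chromosome 11 from 50602084 to 50807573 (+). All values are for whole genes, so exons and isoforms were not separated.

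**Figure D1:**
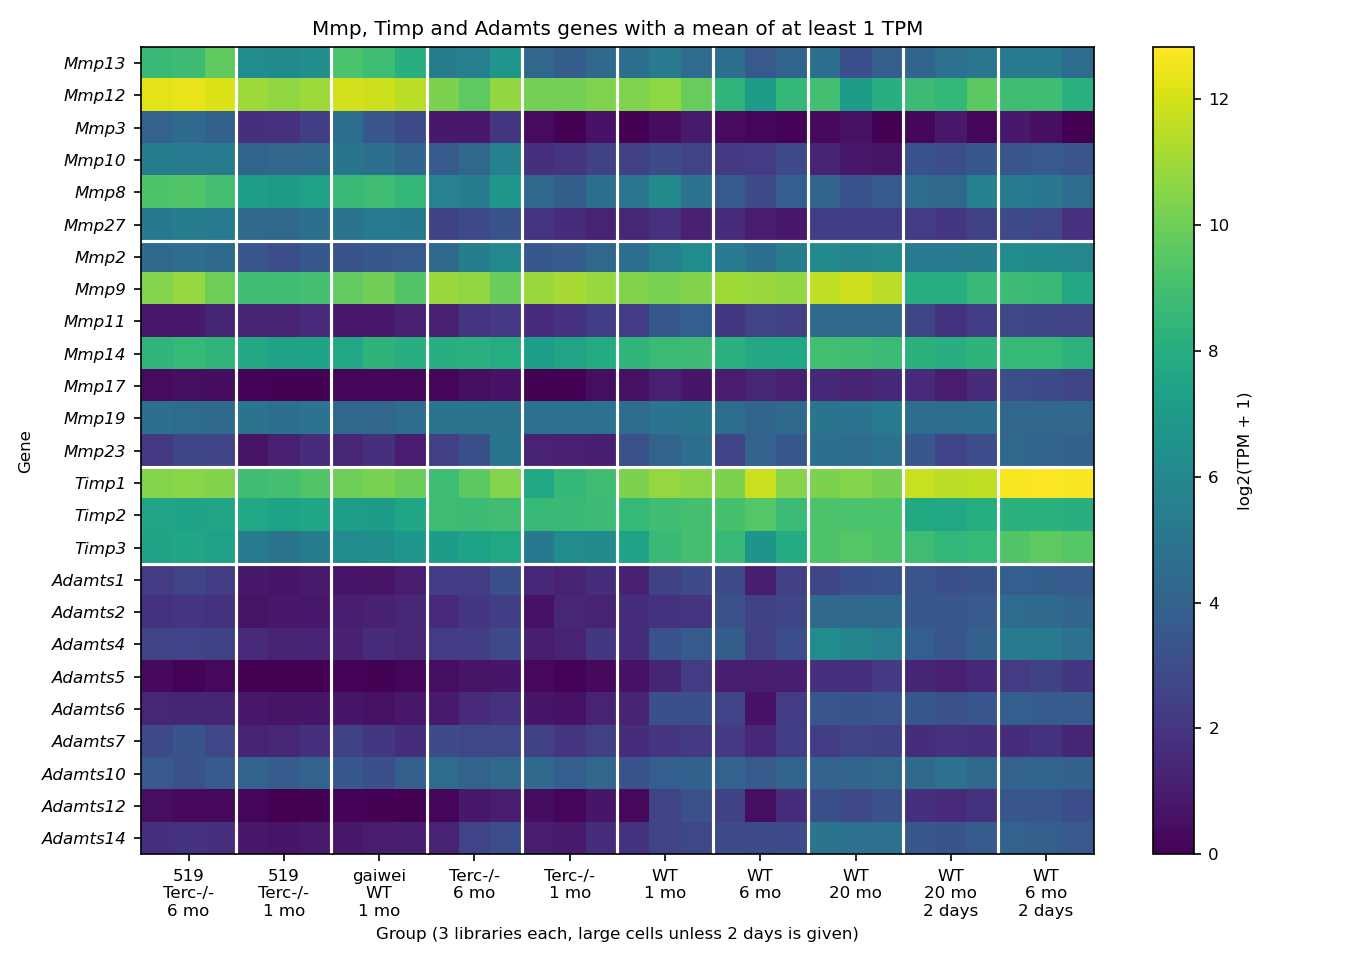
Each row is a gene with a mean of at least 1 TPM, each column a library, and the colour is log2(TPM + 1); white lines part the 10 groups and, down the page, the chromosome 9 Mmp genes, the other Mmp genes, the Timp genes and the Adamts genes. Mmp12, Mmp9 and Timp1 are the brightest rows, Mmp12 reaching 5340 TPM in the 519-marked 6-month Terc-/- group, while Adamts5 and Mmp17 stay below 8 TPM throughout.

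A block of Mmp genes lies side by side on chromosome 9 between 7272514 and 7699585 (GRCm38), a stretch of 427072 bp. It holds 9 of the genes, in the order Mmp13, Mmp12, Mmp1b, Mmp3, Mmp10, Mmp8, Mmp27, Mmp20 and Mmp7, and 6 of them were tested. They encode collagenases (Mmp13, Mmp8), stromelysins (Mmp3, Mmp10), the macrophage elastase (Mmp12) and Mmp27. Grouping them by position was done after their values had been seen. Mmp12 overlaps Mmp1b, which lies on the other strand, and the sources used here do not say whether counting used strand, so reads in the overlap are uncertain. Mmp1b itself never passed 0.887 TPM.

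Promoter sequences of these genes are shown because the 6 genes were called in the same direction in several comparisons and the AP-1 element is textbook knowledge for this family. RefSeq (GRCm38.p6) gave a promoter window, from 250 bases before to 50 bases after the start site, for 31 of the 45 genes. The AP-1 sequence TGAGTCA was searched on both strands, a search chosen after the values were seen. It occurred in 4 of the 6 tested chromosome 9 genes, in 6 of the 9 genes of the block and in 0 of the 22 other genes with a window, against 5.20% of 32851 promoters of the same length. The genes without a window, among them Mmp9, Mmp2, Mmp19 and Adamts4, were not searched, so the counts do not show whether the sequence is particular to the block. A gene was counted if any of its windows matched, whereas 5.20% is a share of single windows. Mmp12 and Mmp7 also had a window without a match. These counts describe letters and were not tested. The stretches below run from 100 bases before the start site to 30 bases of transcript, 5′ to 3′ on the + strand, and capitals mark TGAGTCA or its reverse complement. They are Mmp13 (chr9:7272414-7272543), Mmp12 at its second annotated start (chr9:7347274-7347403), Mmp3 (chr9:7445722-7445851) and Mmp10 (chr9:7502242-7502371), with Mmp8 (chr9:7558329-7558458) and Mmp27 (chr9:7571296-7571425), which held no match, for contrast.
Mmp13: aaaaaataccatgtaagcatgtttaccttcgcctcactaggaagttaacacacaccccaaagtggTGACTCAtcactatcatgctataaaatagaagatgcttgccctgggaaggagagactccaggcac
Mmp12: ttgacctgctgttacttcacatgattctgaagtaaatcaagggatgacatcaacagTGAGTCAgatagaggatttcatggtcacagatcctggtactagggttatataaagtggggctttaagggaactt
Mmp3: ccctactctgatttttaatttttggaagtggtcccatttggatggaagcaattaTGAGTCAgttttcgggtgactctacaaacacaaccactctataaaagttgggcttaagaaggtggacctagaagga
Mmp10: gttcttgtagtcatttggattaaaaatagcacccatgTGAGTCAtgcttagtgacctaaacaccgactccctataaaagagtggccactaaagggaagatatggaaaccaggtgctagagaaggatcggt
Mmp8: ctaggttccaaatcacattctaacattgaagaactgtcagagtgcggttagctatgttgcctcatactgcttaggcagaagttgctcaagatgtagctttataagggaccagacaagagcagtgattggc
Mmp27: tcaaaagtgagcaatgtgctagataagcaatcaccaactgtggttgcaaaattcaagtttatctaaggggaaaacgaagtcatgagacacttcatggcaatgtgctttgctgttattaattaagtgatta

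Counted from the start site, the match began at base -35 in Mmp13, -44 in Mmp12, -46 in Mmp3 and -63 in Mmp10. The first annotated start of Mmp12 held none.

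The differentiation step was read by comparing WT large-cell libraries with WT libraries at 2 days. Mmp9, Timp2, Mmp19 and Adamts7 were higher in large cells at both ages, and Timp1 and the neutrophil collagenase gene Mmp8 were lower at both. Mmp9 lay at 3147, 3810 and 2901 TPM in 20-month large cells, against 269.8, 252 and 416 TPM at 2 days. At 6 months it lay at 2058, 1940 and 1714 TPM in large cells, against 441, 412 and 210.3 TPM at 2 days. The lowest large-cell library was above the highest 2-day library at either age. The log2 change was 3.54 ± 0.30 (SE) at 20 months and 2.88 ± 0.30 at 6 months (limma, adjusted p = 3.22e-09 and 8.59e-08, n = 3 each).

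The inhibitor genes split. Timp2, whose product blocks several Mmp proteases and also takes part in activating Mmp2, was at 611, 586 and 579 TPM in 20-month large cells, against 218, 206 and 244 TPM at 2 days. At 6 months it was at 540, 704 and 427 TPM in large cells, against 288, 290.1 and 275 TPM at 2 days, without overlap at either age. Its log2 changes were 1.53 ± 0.19 at 20 months and 1.33 ± 0.19 at 6 months (limma, adjusted p = 5.53e-07 and 4.6e-06). Timp1 ran the other way. It lay at 1275, 1387 and 1167 TPM in 20-month large cells, against 3476, 2865 and 3152 TPM at 2 days, and at 1266, 3569 and 1445 TPM in 6-month large cells, against 6774, 7299 and 6615 TPM at 2 days. The groups did not overlap at either age. The highest large-cell value at 6 months belongs to replicate 2, the library unlike its group. The log2 changes of Timp1 were -1.18 ± 0.40 at 20 months and -1.49 ± 0.40 at 6 months (limma, adjusted p = 0.0221 and 0.00388). The 20-month call of Timp1 was lost without replicate 1 or 4 of the large cells or replicate 2 or 4 at 2 days (limma, adjusted p = 0.0529 to 0.0671). That of Mmp8 was lost without replicate 4 at 2 days (-0.59, adjusted p = 0.237) or replicate 3 or 4 of the large cells (0.144 and 0.0769), and in a fit of only the 20-month groups (0.0533). At 6 months a fit of only the groups compared called neither Timp1 (0.138) nor Timp2 (0.053), and a variance for each group did not call Timp1 (0.0659). Set against each other, Mmp9 over Timp1 as a ratio of TPM lay at 2.47 to 2.75 in 20-month large cells, against 0.0776 to 0.132 at 2 days, and at 0.544 to 1.63 in 6-month large cells, against 0.0318 to 0.0650 at 2 days.

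**Figure D2:**
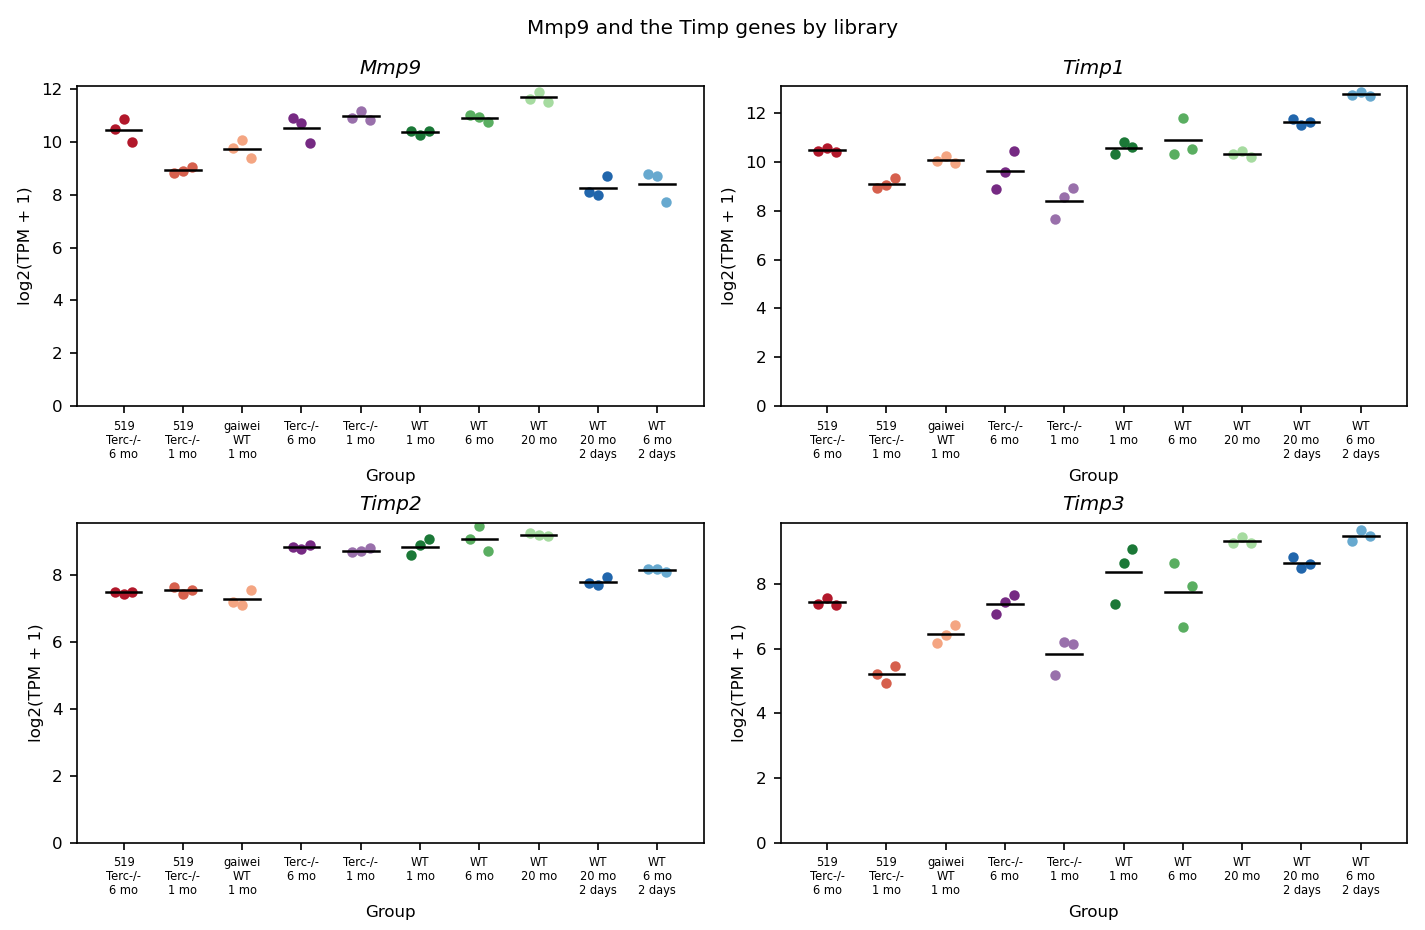
Points are libraries, black lines group means, and the vertical axis is log2(TPM + 1) from 0. By group mean Mmp9 is lowest in both 2-day groups, with no library above 441 TPM, whereas Timp1 is highest there, with no library below 2865 TPM; Timp2 is at or below 202 TPM in every marked library.

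At 20 months 14 of the 25 tested genes were higher and 3 lower in large cells (limma, Benjamini-Hochberg at 0.05), where 36.2% of all 12614 tested genes were called, 18.7% higher and 17.5% lower. At 6 months 4 were higher and 11 lower, where 49.8% were called, 24.6% higher and 25.1% lower. The median log2 change of the 25 genes was 0.60 at 20 months and -0.59 at 6 months, beside 0.00 and -0.02 over all tested genes. The 15 of 25 called at 6 months are near the share over all tested genes, and that count says little about these genes as such. With TPM as deposited the split at 6 months was 2 higher and 15 lower, and at 20 months 11 higher and 3 lower. A fit of only the 6-month groups called 8, but 17 once replicate 2 of the large cells was also left out, and a variance of its own for each group gave 8.

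A set of genes went opposite ways at the 2 ages. Adamts4 and Adamts5, the main aggrecanase genes, Adamts12, whose product cuts cartilage oligomeric matrix protein, Adamts2, which encodes a procollagen N-proteinase, and Timp3, the matrix-bound inhibitor gene, were higher in large cells at 20 months and lower at 6 months. Adamts4 lay at 72.9, 56.0 and 44.5 TPM in 20-month large cells, against 13.3, 9.66 and 14.8 TPM at 2 days. At 6 months it lay at 12.9, 4.47 and 7.51 TPM in large cells, against 39.0, 37.9 and 26.9 TPM at 2 days. The groups did not overlap at either age, and the log2 change was 2.20 ± 0.31 at 20 months and -1.66 ± 0.31 at 6 months (limma, adjusted p = 5.46e-06 and 0.000176). Adamts12 was not called at 6 months without replicate 2 of the large cells (-1.03, adjusted p = 0.0578), or at 20 months without replicate 3 at 2 days (1.25, adjusted p = 0.0503).

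Timp3 was at 611, 691 and 606 TPM in 20-month large cells, against 455, 360.1 and 388 TPM at 2 days, and at 400, 100.6 and 241 TPM in 6-month large cells, against 643, 807 and 706 TPM at 2 days. Again no groups overlapped, and the log2 changes of Timp3 were 0.79 ± 0.29 at 20 months and -1.35 ± 0.29 at 6 months (limma, adjusted p = 0.035 and 0.000612). Adamts2 averaged 19.8 ± 0.422 TPM in large cells and 10.8 ± 1.02 TPM at 2 days at 20 months, and 6.06 ± 1.71 TPM in large cells and 19.7 ± 2.31 TPM at 2 days at 6 months (SD, n = 3 each).

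The difference between the ages was tested directly. The change with large cells was higher at 20 months for 13 of the 25 genes and lower for 1, where 25% of all tested genes were called, 12.4% higher and 12.6% lower. The differences of log2 change were 3.86 ± 0.44 for Adamts4, 2.82 ± 0.59 for Adamts12, 2.16 ± 0.69 for Mmp23, 2.14 ± 0.41 for Timp3 and 2.14 ± 0.26 for Adamts2 (limma, adjusted p = 1.96e-06, 0.00126, 0.0246, 0.000553 and 2.86e-06). Mmp11, the stromelysin gene of stromal cells, differed by 2.08 ± 0.42, being called at 20 months, where it averaged 19.9 ± 0.745 TPM in large cells and 4.07 ± 1.34 TPM at 2 days. Mmp10 was the gene with the lower difference, at -1.48 ± 0.48, and averaged 0.922 ± 0.407 TPM in 20-month large cells and 8.89 ± 1.62 TPM at 2 days. With a variance for each group 9 genes were called in place of 14. Mmp23 was not called without replicate 3 of the 20-month 2-day group, replicate 1 of the 6-month 2-day group or replicate 1 of the 6-month large cells (limma, adjusted p = 0.0524 to 0.0668), and Mmp10 was lost on leaving out each of 5 libraries in turn (adjusted p = 0.0514 to 0.0652).

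Other genes of the pathway and of other cell types moved in the same comparisons. Of 17 matrix substrate genes, 11 were tested. At 20 months 8 were higher and 0 lower in large cells, and at 6 months 1 was higher and 7 lower; Col1a1, the type I collagen gene, had a log2 change of 2.63 ± 0.36 at 20 months (limma, adjusted p = 2.95e-06) and of -0.59 ± 0.36 at 6 months (adjusted p = 0.173). The summed level of the 5 smooth muscle and myofibroblast markers lay at 2673 to 3318 TPM in 20-month large cells, against 2530 to 3226 TPM at 2 days, and at 2011 to 3248 TPM in 6-month large cells, against 8330 to 9576 TPM at 2 days, with all 5 lower at 6 months. The summed level of 10 stromal markers lay at 721 to 953 TPM in 20-month large cells, against 225 to 284 TPM at 2 days, and at 145.5 to 350.2 TPM in 6-month large cells, against 366.6 to 447 TPM at 2 days. Lum was at 0 in the 20-month large cells, and no other marker of these 2 lists was at 0 in any of the 4 groups. The summed macrophage markers lay at 17190 to 25060 TPM in 20-month large cells, against 34690 to 39850 TPM at 2 days, and the neutrophil markers at 2.99 to 17.9 TPM in 20-month large cells, against 149 to 212 TPM at 2 days. At 6 months the macrophage markers lay at 22370 to 30060 TPM in large cells, against 20590 to 23550 TPM at 2 days, and the neutrophil markers at 17.6 to 65.9 TPM in large cells, against 84.5 to 172.6 TPM at 2 days. Mpo and Elane were at 0 in all 4 groups. The 9 osteoclast markers were all higher in large cells at both ages. The part of these markers in the results was not tested, and in bulk RNA fewer cells of a type and less RNA per cell cannot be told apart. Of 15 activators and other inhibitors, 8 were tested; Tfpi2, a Kunitz-type inhibitor, changed by -3.01 ± 0.28 at 20 months and -2.43 ± 0.28 at 6 months, and Furin, whose product cuts Mmp14 and Adamts precursors, by -0.41 ± 0.11 and -0.55 ± 0.11 (limma, all adjusted p at most 0.00364).

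**Figure D3:**
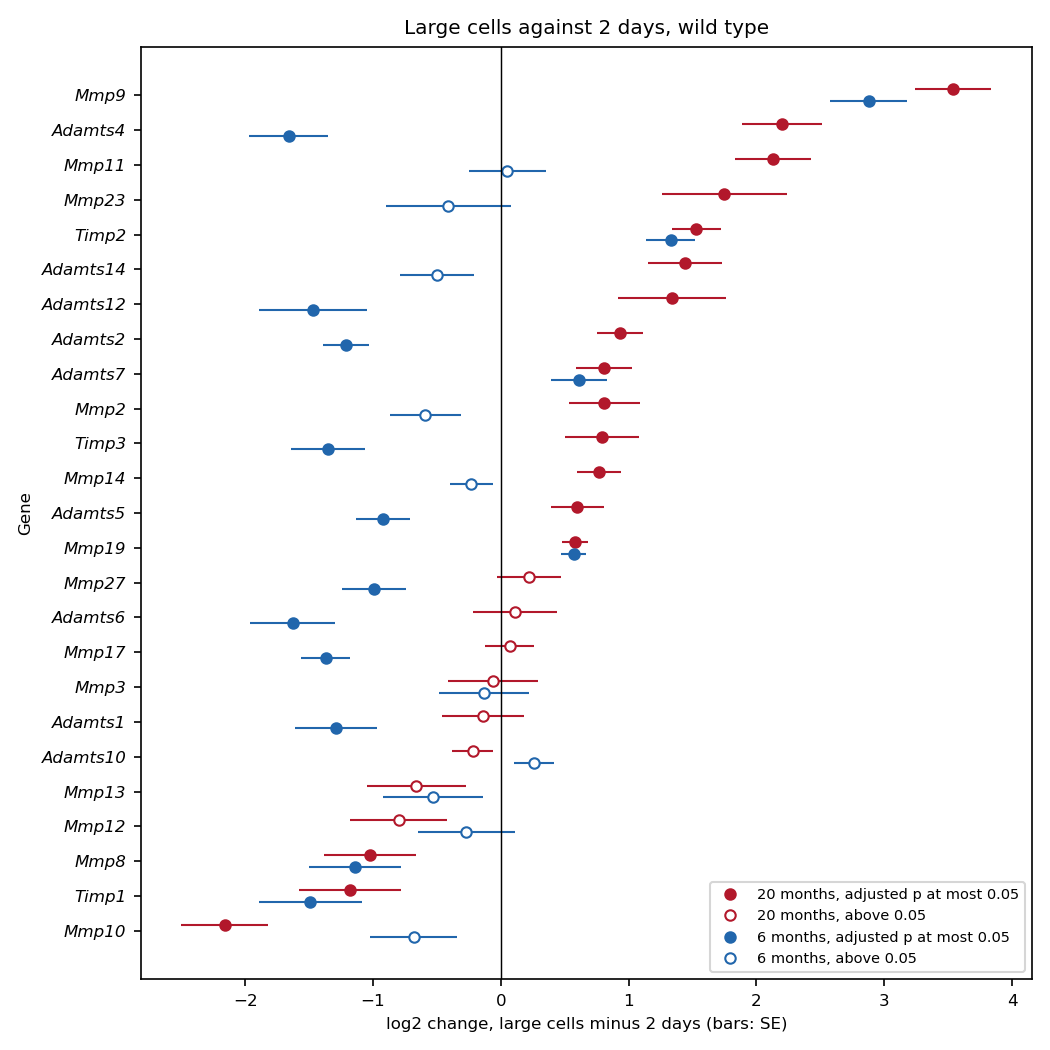
Each row is a tested gene and each point its log2 change in WT large cells against 2 days, with bars of 1 SE; red marks 20 months and blue 6 months, and filled points have an adjusted p of at most 0.05. Mmp9 is farthest right at both ages (3.54 at 20 months and 2.88 at 6 months), and Adamts4 is at 2.20 at 20 months but at -1.66 at 6 months.

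The next question was how WT cultures differ with the age of the mouse. At 2 days, 1 of the 25 genes was higher and 8 lower at 20 than at 6 months, where 17.3% of all tested genes were called, 8.54% higher and 8.77% lower. The lower genes were Adamts12, Mmp17, Adamts4, Timp1, Adamts5, Timp3, Adamts2 and Mmp2, and Mmp19 was higher. Mmp17, a membrane-type gene, lay at 1.99, 0.954 and 2.12 TPM at 20 months, against 7.42, 6.44 and 5.42 TPM at 6 months, a log2 change of -1.41 ± 0.19 (limma, adjusted p = 1.8e-05). Every library of the older group was below every younger one. Timp1 averaged 3164 ± 306 TPM at 20 months and 6896 ± 358 TPM at 6 months (SD, n = 3 each). Timp1, Timp3 and Mmp2 each lost their call whichever of the 6 libraries was left out (limma, adjusted p = 0.0572 to 0.151). Mmp19 lost its call in 4 of the 6 cases (adjusted p = 0.0536 to 0.113) and Adamts12 in 3 (0.0525 to 0.0598). The split with TPM as deposited was 0 higher and 6 lower, without Mmp19, Timp3 and Mmp2 (limma, adjusted p = 0.0875, 0.145 and 0.108), and Adamts12 was not called with a pseudocount of 0.1 (0.0915). A fit of only these groups called 14, leaving out replicate 1 or 2 of the 6-month group left 4, and leaving out its replicate 3, or replicate 3 or 4 of the 20-month group, left 5. Markers of other cells moved in the same comparison. The summed smooth muscle and myofibroblast markers lay at 2530 to 3226 TPM at 20 months, against 8330 to 9576 TPM at 6 months, with all 5 lower, and 6 of the 11 tested substrate genes were lower and 0 higher. The summed macrophage markers lay at 34690 to 39850 TPM at 20 months, against 20590 to 23550 TPM at 6 months, with 6 of 8 higher. The osteoclast markers summed to 382 to 528 TPM at 20 months, against 127.6 to 139.9 TPM at 6 months, with 5 of 9 higher. B and plasma cell markers summed to 85.0 to 108.7 TPM at 20 months, against 2.70 to 6.59 TPM at 6 months, with both tested ones, Ighm and Igkc, higher. Their part in the results was not tested.

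In WT large cells the genes were compared over 1, 6 and 20 months. Several procollagen and proteoglycan proteases were highest at 20 months. Adamts4 averaged 7.41 ± 4.79, 8.29 ± 4.26 and 57.8 ± 14.2 TPM at 1, 6 and 20 months. Adamts2 averaged 2.65 ± 0.412, 6.06 ± 1.71 and 19.8 ± 0.422 TPM, and Adamts14, another procollagen N-proteinase gene, 4.55 ± 1.65, 6.78 ± 0.350 and 27.9 ± 1.88 TPM (SD, n = 3 each). For each of these 3 genes every 20-month library was above every library of both younger groups.

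Mmp9 averaged 1311 ± 81.3, 1904 ± 175 and 3286 ± 470 TPM at 1, 6 and 20 months. Mmp12 was highest at 1 month, at 1317, 1621 and 909 TPM, and lay at 334, 130.1 and 369 TPM at 6 months and at 502, 136 and 276 TPM at 20 months. The 6- and 20-month libraries of Mmp12 overlapped, and every 1-month library was above them. Mmp8 had the same order between 1 month and the older ages, at 43.0 ± 22.1, 10.6 ± 3.24 and 12.4 ± 4.52 TPM.

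At 20 against 1 month, 7 genes were higher and 3 lower, where 22.2% of all tested genes were called, 9.2% higher and 13% lower. Adamts4 had a log2 change of 2.87 ± 0.31, Adamts2 of 2.38 ± 0.18, Adamts14 of 2.30 ± 0.29, Mmp9 of 1.19 ± 0.30 and Mmp12 of -2.35 ± 0.38 (limma, adjusted p = 4.18e-07, 1.18e-09, 2.97e-06, 0.00604 and 7.01e-05). At 20 against 6 months 11 were higher and 1 lower, beside 27.6% of all tested genes, 12.7% higher and 14.9% lower. Adamts4 changed by 2.47 ± 0.31, Mmp11 by 1.71 ± 0.30, Adamts14 by 1.62 ± 0.29 and Mmp10 by -1.67 ± 0.34 (limma, adjusted p = 6.55e-06, 0.000255, 0.000321 and 0.00115). That count was 1 with a variance for each group and 3 in a fit of only these groups, and 10 when replicate 2 of the 6-month group was also left out. At 6 against 1 month 1 gene was higher (Adamts2, 1.05 ± 0.18) and 3 lower (Mmp12, Mmp8 and Mmp14), where 9.58% of all tested genes were called, 3.87% higher and 5.71% lower. No call remained with a variance for each group or in a fit of only these groups (limma), with 2 and 5 genes at an unadjusted p under 0.05. Leaving out replicate 1 of the 1-month group gave 8 calls and leaving out replicate 1 of the 6-month group 7. Mmp14 lost its call without replicate 3 or 4 of the 1-month group or replicate 4 of the 6-month group (limma, adjusted p = 0.0802 to 0.0921). The 1-month libraries are the female-pattern ones, and age and sex pattern cannot be told apart in them. The summed stromal markers lay at 142.7 to 798 TPM at 1 month, 145.5 to 350.2 TPM at 6 months and 721 to 953 TPM at 20 months, and the osteoclast markers summed to 9312 to 11570 TPM at 1 month, 7509 to 12630 TPM at 6 months and 15210 to 24340 TPM at 20 months. Of the 9 osteoclast markers 5 were higher and 0 lower at 20 against 1 month, and 3 were higher and 0 lower at 20 against 6 months (limma). The part of these markers in the differences, that in Mmp9 included, was not tested.

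Terc-/- and WT large cells were then compared at each age in the unmarked libraries. At 6 months all 6 tested chromosome 9 Mmp genes were higher in Terc-/- cells, as were Adamts7 and Mmp19, and Timp1, Adamts2 and Mmp17 were lower. These are 8 higher and 3 lower of 25, where 28.8% of all tested genes were called, 15.7% higher and 13.1% lower. Mmp8 lay at 50.8, 40.6 and 108.1 TPM in Terc-/- libraries, against 11.5, 6.96 and 13.2 TPM in WT libraries, a change of 2.34 ± 0.36 (limma, adjusted p = 4.57e-05). Mmp12 lay at 1242, 811 and 1711 TPM in Terc-/- libraries, against 334, 130.1 and 369 TPM in WT libraries, a change of 2.12 ± 0.38 (adjusted p = 0.000192). Mmp10 changed by 1.97 ± 0.34, Mmp13 by 1.63 ± 0.39, Mmp27 by 1.63 ± 0.25 and Mmp3 by 0.97 ± 0.35 (limma, adjusted p = 0.000134, 0.00302, 3.28e-05 and 0.0416). The groups did not overlap in any of these 6 genes. Timp1, at 465, 766 and 1377 TPM in Terc-/- libraries against 1266, 3569 and 1445 TPM in WT libraries, did overlap.

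None of these 11 calls remained when each group had its own variance or when only these groups entered the fit (limma), with 7 and 11 genes at an unadjusted p under 0.05. The fit of only these groups called 3 when replicate 2 of the WT group was left out. Without that library in the fit of all groups, Timp1 changed by -0.69 (adjusted p = 0.0992), Mmp3 by 1.00 (adjusted p = 0.0626) and Adamts7 by 0.57 (adjusted p = 0.0737). Without replicate 4 of the Terc-/- group Mmp3 changed by 0.58 (adjusted p = 0.237), without replicate 4 of the WT group by 0.92 (adjusted p = 0.0954), and without replicate 1 of the Terc-/- group Timp1 changed by -0.99 (adjusted p = 0.101) and Adamts7 by 0.63 (adjusted p = 0.0767).

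At 1 month the pattern was another. There all WT libraries have the female pattern of Xist and no Terc-/- library does, so genotype and sex pattern cannot be told apart. The Timp genes Timp3 and Timp1, the gelatinase gene Mmp2, the collagenase activator gene Mmp14 and 6 of the 9 tested Adamts genes were lower in Terc-/- cells. In all, 1 of the 25 genes was higher and 14 were lower, where 30.9% of all tested genes were called, 15.4% higher and 15.6% lower. Adamts10 was the higher gene, at 0.49 ± 0.16 (limma, adjusted p = 0.0242), with overlapping groups. With TPM as deposited, with a variance for each group or in a fit of only these groups, 0 of the 25 genes were called higher. The same held without replicate 1 or 4 of the Terc-/- group or replicate 1 of the WT group. The median log2 change was -0.74 over the 25 genes and 0.00 over all tested genes. A fit of only these groups called 7.

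Timp3 lay at 35.2, 72.4 and 69.3 TPM in 1-month Terc-/- libraries, against 166, 396 and 533 TPM in WT libraries, a log2 change of -2.49 ± 0.29 (limma, adjusted p = 1.26e-06). Timp1, which is X-linked, lay at 201, 377 and 480 TPM in Terc-/- libraries, against 1259, 1802 and 1530 TPM in WT libraries, a change of -2.16 ± 0.40 (adjusted p = 0.000235). Mmp23, a small membrane-anchored protease gene, lay at 1.41, 1.24 and 1.11 TPM in Terc-/- libraries, against 8.12, 16.8 and 23.7 TPM in WT libraries, a change of -2.76 ± 0.49 (adjusted p = 0.000154). In each of these genes the highest Terc-/- library was below the lowest WT library.

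Mmp2 averaged 14.1 ± 4.74 TPM in Terc-/- and 48.8 ± 25.8 TPM in WT cells, and Mmp14 186 ± 46.3 TPM in Terc-/- and 401 ± 57.2 TPM in WT cells (SD, n = 3 each). Mmp9 averaged 2010 ± 265 TPM in Terc-/- and 1311 ± 81.3 TPM in WT cells and did not pass the test. The ratio of Mmp9 to Timp1 was 3.81 to 9.41 in Terc-/- libraries, against 0.676 to 1.09 in WT libraries.

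**Figure D4:**
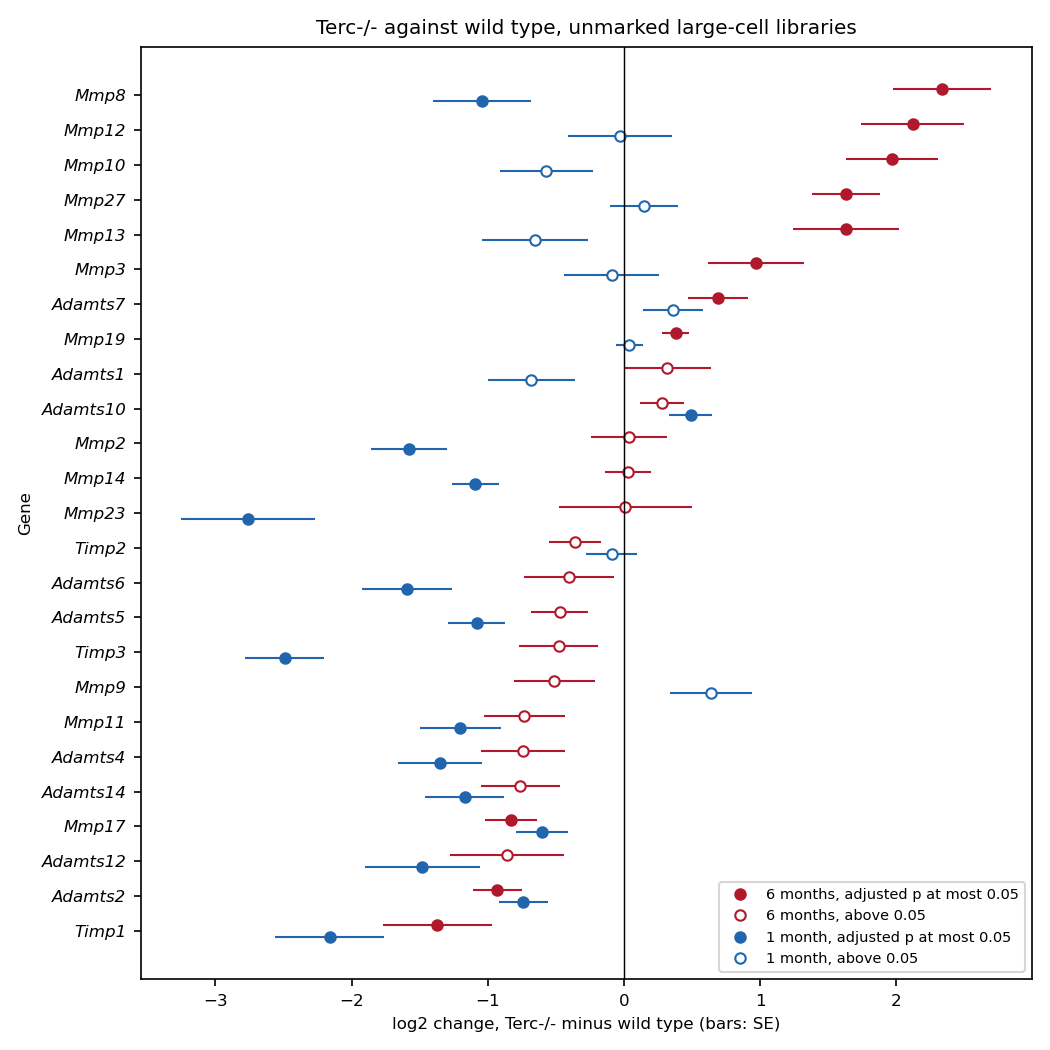
Each row is a tested gene and each point its log2 change in Terc-/- against WT large cells of the unmarked libraries, with bars of 1 SE; red marks 6 months and blue 1 month, and filled points have an adjusted p of at most 0.05. Mmp8 is at 2.34 at 6 months and at -1.04 at 1 month, and Timp1 is at -1.37 and -2.16.

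Timp1, Adamts2 and Mmp17 were lower in Terc-/- cells at both ages, and Mmp8 was higher at 6 months and lower at 1 month. Only the 1-month comparison uses the female-pattern WT libraries, so age and sex pattern cannot be told apart between the 2 comparisons. The difference between the 2 genotype effects passed the test for 9 of the 25 genes, all with a higher effect at 6 months, where 3.58% of all tested genes were called, 2.79% with a higher and 0.785% with a lower effect; 1 gene had a lower effect at an unadjusted p under 0.05. The differences were 3.38 ± 0.51 for Mmp8, 2.76 ± 0.69 for Mmp23, 2.55 ± 0.48 for Mmp10, 2.28 ± 0.55 for Mmp13, 2.15 ± 0.53 for Mmp12 and 2.01 ± 0.41 for Timp3 (limma, adjusted p = 0.000261, 0.0236, 0.00226, 0.0193, 0.022 and 0.00496). With a variance for each group 0 of these calls were made by limma (10 genes at an unadjusted p under 0.05), and 1 in a fit of only the 4 groups. That fit called 2 without replicate 2 of the 6-month WT group. Leaving out replicate 4 of the 6-month Terc-/- group gave 4 calls and leaving out replicate 3 of the 1-month WT group 5; Mmp12, Mmp13 and Mmp23 were among those lost in both cases (limma, adjusted p = 0.059 to 0.077).

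The osteoclast markers summed to 7274 to 9108 TPM in 1-month Terc-/- libraries, against 9312 to 11570 TPM in WT libraries, without overlap. At 6 months they summed to 3641 to 9667 TPM in Terc-/- libraries, against 7509 to 12630 TPM in WT libraries, with overlap. Markers of other cells also moved with genotype. The summed smooth muscle and myofibroblast markers lay at 309 to 1861 TPM in 6-month Terc-/- libraries, against 2011 to 3248 TPM in WT libraries, and at 317 to 692 TPM in 1-month Terc-/- libraries, against 1853 to 2611 TPM in WT libraries. No marker of that list was at 0. The summed stromal markers lay at 79.4 to 250.1 TPM in 6-month Terc-/- libraries, against 145.5 to 350.2 TPM in WT libraries, and at 42.8 to 109.7 TPM in 1-month Terc-/- libraries, against 142.7 to 798 TPM in WT libraries. Dpt was at 0 in both Terc-/- groups. Of the 11 tested substrate genes 1 was higher and 7 lower at 6 months, and 1 was higher and 9 lower at 1 month, with Fn1 (fibronectin) at -1.17 ± 0.33 and -2.19 ± 0.33 (limma, adjusted p = 0.00972 and 2.38e-05). The summed macrophage markers lay at 39900 to 46410 TPM in 6-month Terc-/- libraries, against 22370 to 30060 TPM in WT libraries, and at 41250 to 45450 TPM in 1-month Terc-/- libraries, against 26050 to 31920 TPM in WT libraries. The summed neutrophil markers lay at 94.0 to 202 TPM in 6-month Terc-/- libraries, against 17.6 to 65.9 TPM in WT libraries, with Camp and S100a8 higher, and at 62.5 to 74.7 TPM in 1-month Terc-/- libraries, against 18.2 to 57.8 TPM in WT libraries, with 0 of the 3 tested ones called. Elane was at 0 in all 4 groups, and Mpo in both 6-month groups and the 1-month WT group. Ltf was at 0 in the 6-month Terc-/- group but not in the 6-month WT group, and Ngp the reverse. The endothelial markers summed to 4.32 to 4.54 TPM in 6-month Terc-/- libraries, against 1.27 to 3.01 TPM in WT libraries, with Kdr and Pecam1 higher, and to 2.31 to 3.31 TPM in 1-month Terc-/- libraries, against 3.005 to 4.88 TPM in WT libraries, with Kdr lower. Among these 4 groups Emcn, of the same list, was at 0 in the 6-month Terc-/- and the 1-month WT libraries only. The part of these cells in the results was not tested. At 1 month every WT library has the female pattern and no Terc-/- library does, so genotype and sex pattern cannot be told apart there. Of the 9 tested Adam genes, which encode membrane-bound relatives, 3 were higher and 0 lower at 6 months, and 3 were higher and 2 lower (Adam12 and Adam19) at 1 month. Adam8 and Adam17 were higher at both ages, Adam8 by 1.29 ± 0.15 at 6 months and 1.55 ± 0.15 at 1 month (limma, adjusted p = 1.12e-06 and 9.12e-08).

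Terc-/- cells of 6 months were compared with those of 1 month, in unmarked and in 519-marked libraries. In the unmarked libraries 9 of the 25 genes were higher and 0 lower at 6 months, where 3.98% of all tested genes were called, 2.93% higher and 1.05% lower; 0 were lower at an unadjusted p under 0.05 as well. Mmp10 lay at 11.2, 19.0 and 48.6 TPM at 6 months, against 2.39, 2.85 and 4.83 TPM at 1 month, a change of 2.43 ± 0.34 (limma, adjusted p = 7.2e-05). Timp3 lay at 134, 172 and 201 TPM at 6 months, against 35.2, 72.4 and 69.3 TPM at 1 month, a change of 1.55 ± 0.29 (adjusted p = 0.00178). The groups did not overlap in either gene. A fit of only these groups called 0 (limma), with 16 genes at an unadjusted p under 0.05, and leaving out replicate 4 of the 6-month group left 4. The summed stromal markers lay at 79.4 to 250.1 TPM at 6 months, against 42.8 to 109.7 TPM at 1 month, with Pdgfrb, Postn and Thy1 higher and Dpt at 0 in both groups. The smooth muscle and myofibroblast markers summed to 309 to 1861 TPM at 6 months, against 317 to 692 TPM at 1 month, with 0 of 5 called, and 4 of the 11 tested substrate genes were higher and 0 lower. The part of these genes was not tested.

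In the 519-marked libraries 14 were higher and 2 lower, where 23.9% of all tested genes were called, 12% higher and 11.8% lower, and with TPM as deposited 17 were higher and 0 lower. Mmp13 lay at 416, 439 and 835 TPM at 6 months, against 70.9, 66.2 and 79.2 TPM at 1 month, a change of 2.69 ± 0.39 (limma, adjusted p = 2.77e-05). Mmp8 lay at 639, 643 and 536 TPM at 6 months, against 143, 127.4 and 163 TPM at 1 month, a change of 1.88 ± 0.36 (adjusted p = 0.00067). Mmp9 averaged 1430 ± 430.4 TPM at 6 months and 484 ± 34.0 TPM at 1 month, a change of 1.33 ± 0.30 (adjusted p = 0.00281). Mmp13, Mmp8, Timp3, Mmp2, Adamts2 and Adamts14 were higher at 6 months in both sets. Of these, Mmp13, Mmp8, Adamts2 and Adamts14 were not called in the unmarked set without replicate 4 of its 6-month group (limma, adjusted p = 0.0664 to 0.326). In the 519-marked set the summed stromal markers lay at 58.1 to 63.4 TPM at 6 months, against 12.8 to 20.1 TPM at 1 month, with Dpt at 0 in both groups. The smooth muscle and myofibroblast markers summed to 673 to 716 TPM at 6 months, against 277 to 324 TPM at 1 month, and the macrophage markers to 41440 to 48160 TPM at 6 months, against 65440 to 74710 TPM at 1 month, with 5 of 8 lower. Of the 9 osteoclast markers Ctsk and Itgb3 were higher and 0 lower, and of the 11 tested substrate genes 8 were higher and 0 lower. The part of these markers was not tested.

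The age change differed between the sets for 3 genes, 1 higher and 2 lower in the marked set, where 4.67% of all tested genes were called, 1.96% higher and 2.71% lower. Mmp9 differed by 1.78 ± 0.43, Adamts10 by -0.89 ± 0.23 and Mmp19 by -0.57 ± 0.14 (limma, adjusted p = 0.0168, 0.0271 and 0.0163). With TPM as deposited 1 was higher and 0 lower, with 6 genes at an unadjusted p under 0.05, and a fit of only the 4 groups called 5. Leaving out replicate 4 of the 6-month or of the 1-month unmarked group, or replicate 2 of the 519-marked 6-month group, left 1. Adamts10 lost its call when any of 7 libraries was left out (limma, adjusted p = 0.0587 to 0.0916), Mmp19 without replicate 4 of the 1-month unmarked group (0.0541), and both with TPM as deposited (0.248 and 0.343). Mmp9 was among the genes lost without replicate 4 of the 6-month unmarked group (1.54, adjusted p = 0.0517) or replicate 2 of the 519-marked 6-month group (1.55, adjusted p = 0.0614).

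The marked libraries were set against the unmarked ones of the same genotype and age. The 6 tested chromosome 9 Mmp genes were higher in the marked libraries in all 3 comparisons, and Timp2 was lower in all 3. None of the other 18 of the 25 tested family genes had the same call in all 3. Of all 12614 tested genes 8.47% were higher in all 3 and 6.45% were lower in all 3. A call was lost with TPM as deposited for 2 of the 6 genes, Mmp12 in the 1-month Terc-/- pair (0.63, limma, adjusted p = 0.183) and Mmp10 in the 6-month Terc-/- pair (0.80, adjusted p = 0.059). Mmp13 lay at 416, 439 and 835 TPM in 519-marked 6-month Terc-/- libraries, against 42.9, 45.6 and 104.2 TPM in unmarked ones. It lay at 70.9, 66.2 and 79.2 TPM in 519-marked 1-month Terc-/- libraries, against 18.0, 12.8 and 20.4 TPM in unmarked ones, and at 578, 456 and 264 TPM in gaiwei-marked 1-month WT libraries, against 26.1, 37.8 and 21.2 TPM in unmarked ones. Marked and unmarked libraries did not overlap in any of these pairs. The log2 changes were 3.44 ± 0.39, 2.50 ± 0.39 and 4.41 ± 0.39 (limma, adjusted p = 2.57e-07, 1.8e-05 and 2.15e-09).

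Mmp8 changed by 3.58 ± 0.36, 3.37 ± 0.36 and 3.91 ± 0.36 in the same order of pairs. Mmp12 was at 4572 to 5340 TPM in 519-marked 6-month Terc-/- libraries, against 811 to 1711 TPM in unmarked ones, and at 2935 to 3916 TPM in gaiwei-marked WT libraries, against 909 to 1621 TPM in unmarked ones. Mmp3, which was under 1 TPM in all but 1 unmarked large-cell library, lay at 14.8 to 20.2 TPM in 519-marked 6-month Terc-/- libraries and at 6.80 to 23.7 TPM in gaiwei-marked WT libraries. Mmp10 overlapped between marked and unmarked 6-month Terc-/- libraries, at 36.8 to 40.8 TPM in marked and 11.2 to 48.6 TPM in unmarked ones. Its call there was lost without replicate 1 or 2 of the unmarked or replicate 2 of the marked group (limma, adjusted p = 0.0552 to 0.181), and in a fit of only these groups (0.121). The Mmp12 call at 1 month in Terc-/- cells, 1.10 ± 0.38, was lost without replicate 1, 3 or 4 of the unmarked or replicate 1 or 3 of the marked group (adjusted p = 0.0522 to 0.0679).

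**Figure D5:**
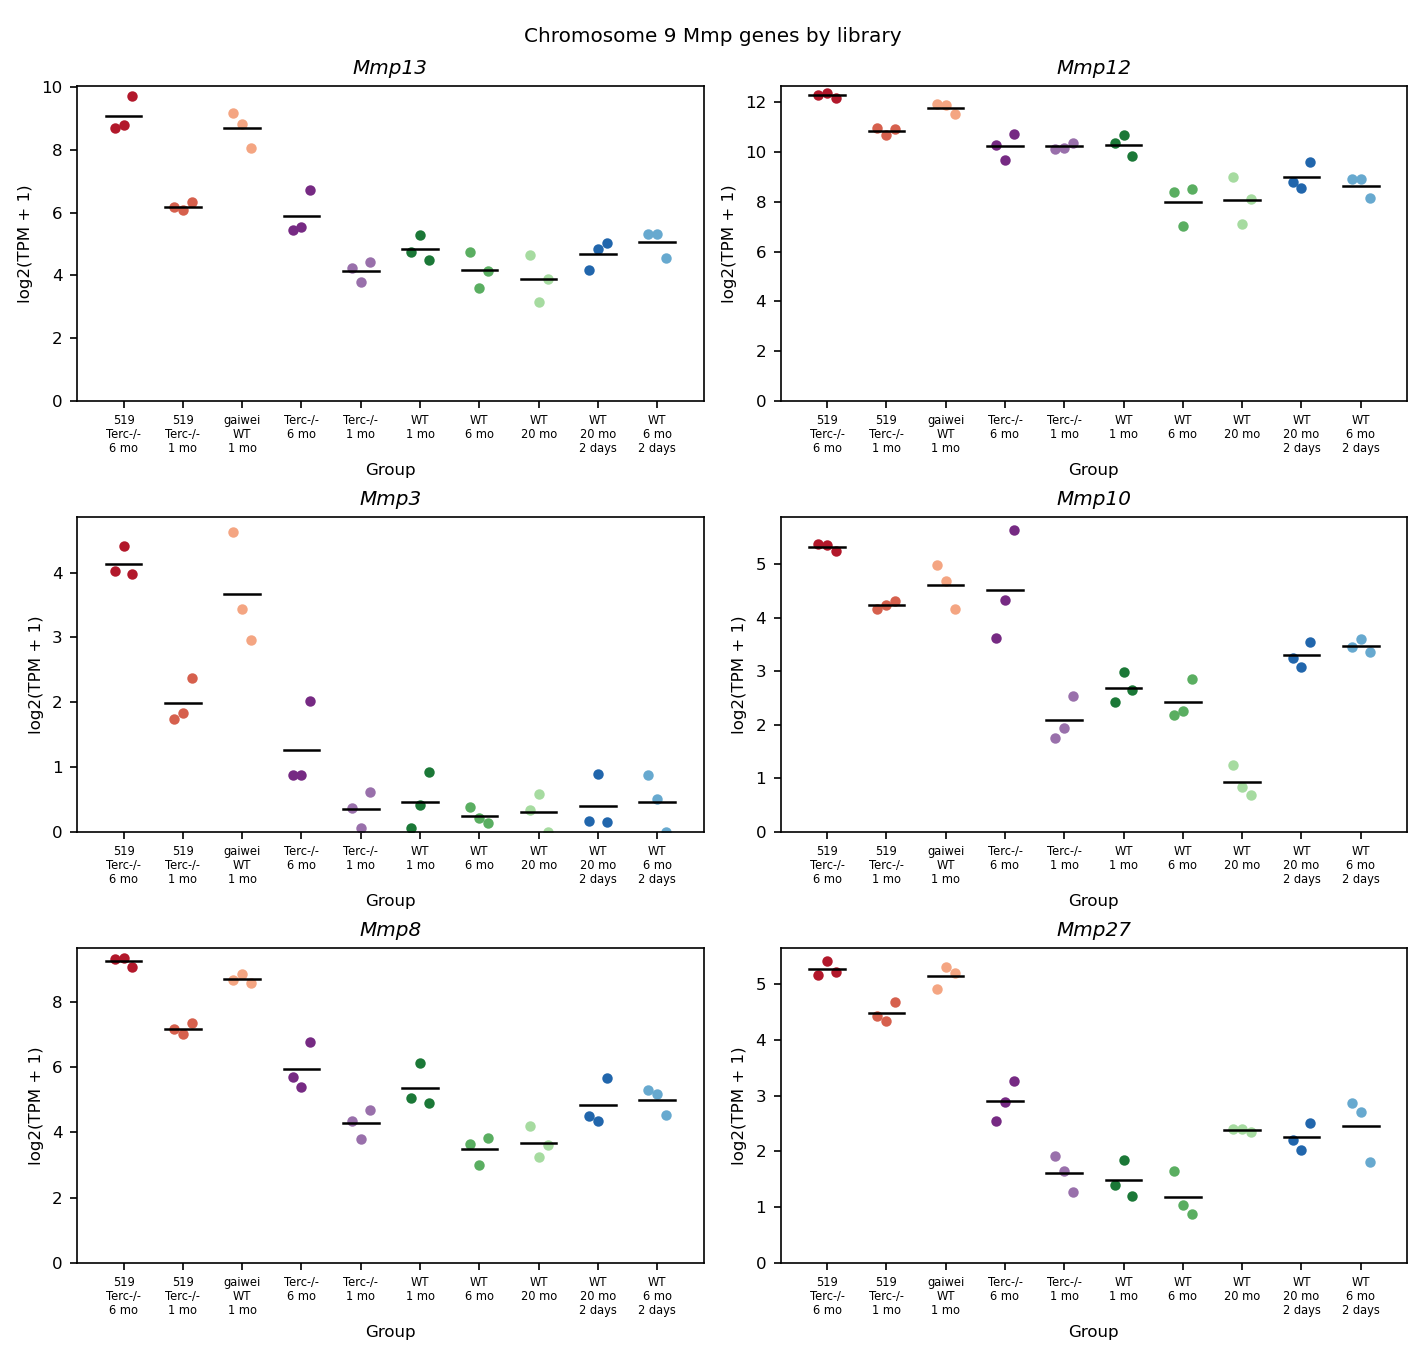
Panels are the 6 tested chromosome 9 Mmp genes, points are libraries, black lines are group means, and each vertical axis is log2(TPM + 1) from 0 with its own upper end. The 519-marked 6-month Terc-/- and gaiwei-marked WT groups are at the top of nearly every panel, Mmp27 for instance lying at 29.3 to 41.9 TPM in both and at no more than 8.58 TPM in any unmarked library.

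Timp2 lay at 181, 174 and 181 TPM in 519-marked 6-month Terc-/- libraries, against 463, 445 and 483 TPM in unmarked ones, a change of -1.09 ± 0.19 (limma, adjusted p = 7.16e-05). At 1 month it lay at 202, 172 and 187 TPM in 519-marked Terc-/- libraries, against 415, 418 and 447 TPM in unmarked ones, a change of -0.72 ± 0.19 (adjusted p = 0.00397). In WT cells it lay at 147, 137 and 188 TPM in gaiwei-marked libraries, against 387, 480 and 537 TPM in unmarked ones, a change of -1.0 ± 0.19 (adjusted p = 9.12e-05). No pair of groups overlapped. Mmp9 was lower in 519-marked 1-month Terc-/- libraries, at 454, 476 and 521 TPM against 1890, 2314 and 1825 TPM in unmarked ones, a change of -1.57 ± 0.30 (adjusted p = 0.000249).

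By count, 8 genes were higher and 2 lower in the 519-marked 6-month Terc-/- libraries, 9 higher and 2 lower in the 519-marked 1-month Terc-/- libraries, and 7 higher and 12 lower in the gaiwei-marked WT libraries. The calls over all tested genes were 28.2%, 33.6% and 46.5%. They were 14.4% higher and 13.8% lower, 18.5% higher and 15.1% lower, and 24.2% higher and 22.4% lower. The counts in the Terc-/- pairs, 10 and 11 of 25, lie not far above these shares. With TPM as deposited the 6-month Terc-/- split was 6 higher and 3 lower and the 1-month Terc-/- split 5 higher and 3 lower. Mmp19 and Mmp14, both called higher in the 1-month Terc-/- pair, depend on the scaling between libraries: Mmp19 averaged 27.9 ± 2.43 TPM in marked and 27.2 ± 0.689 TPM in unmarked libraries, and changed by 0.03 with TPM as deposited (limma, adjusted p = 0.857), and Mmp14 averaged 184 ± 24.8 TPM in marked and 186 ± 46.3 TPM in unmarked libraries. In the WT pair 12 genes were lower, among them Mmp23 (-2.20 ± 0.49), Mmp11 (-1.92 ± 0.30), Adamts12 (-1.82 ± 0.42), Adamts6 (-1.53 ± 0.33), Mmp2 (-1.48 ± 0.28) and Timp3 (-1.36 ± 0.29; limma, all adjusted p at most 0.00094).

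The 9 osteoclast markers were all lower in the marked libraries in each pair, Ctsk by -4.28 ± 0.27, -6.13 ± 0.27 and -5.56 ± 0.27 at 6-month Terc-/-, 1-month Terc-/- and 1-month WT. The summed stromal markers lay at 12.8 to 20.1 TPM in 519-marked 1-month Terc-/- libraries, against 42.8 to 109.7 TPM in unmarked ones, and at 23.0 to 27.4 TPM in gaiwei-marked WT libraries, against 142.7 to 798 TPM in unmarked ones. In 6-month Terc-/- libraries they lay at 58.1 to 63.4 TPM in 519-marked and 79.4 to 250.1 TPM in unmarked ones. The summed smooth muscle and myofibroblast markers lay at 460 to 503 TPM in gaiwei-marked WT libraries, against 1853 to 2611 TPM in unmarked ones. In Terc-/- libraries these sums overlapped between marked and unmarked ones. They were 277 to 324 against 317 to 692 TPM at 1 month, and 673 to 716 against 309 to 1861 TPM at 6 months. The sum of 7 neutrophil markers, most of it S100a8, lay at 1199 to 3295 TPM in 519-marked 6-month Terc-/- libraries, against 94.0 to 202 TPM in unmarked ones. It lay at 1274 to 1379 TPM in 519-marked 1-month Terc-/- libraries, against 62.5 to 74.7 TPM in unmarked ones, and at 1442 to 2507 TPM in gaiwei-marked WT libraries, against 18.2 to 57.8 TPM in unmarked ones. The defining granule gene Elane was at 0 in all 3 marked groups and Mpo in both 519-marked ones. The summed macrophage markers lay at 41440 to 48160 TPM in 519-marked 6-month Terc-/- libraries, against 39900 to 46410 TPM in unmarked ones, with 1 of 8 higher and 2 lower. They lay at 65440 to 74710 TPM in 519-marked 1-month Terc-/- libraries, against 41250 to 45450 TPM in unmarked ones, and at 44120 to 54830 TPM in gaiwei-marked WT libraries, against 26050 to 31920 TPM in unmarked ones, with 6 of 8 higher in each of these pairs. The urokinase receptor gene Plaur, whose ligand activates plasminogen and through it several Mmp precursors, was higher in all 3 pairs, by 1.94 ± 0.21, 1.65 ± 0.21 and 2.32 ± 0.21 (limma, adjusted p = 1.05e-07, 8.55e-07 and 2.47e-09). The part of cell composition in the marked comparisons was not tested, and the meaning of the marks is not stated, so that mark, harvest and composition cannot be told apart. In the WT pair the unmarked libraries have the female pattern and the gaiwei-marked ones the male one. There, sex pattern cannot be told apart from the mark either.

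Between the marked 1-month sets, 519-marked Terc-/- libraries were compared with gaiwei-marked WT ones, although the marks differ. Here 1 gene was higher and 4 were lower of 25, where 3.45% of all tested genes were called, 1.58% higher and 1.87% lower. Mmp13 lay at 70.9, 66.2 and 79.2 TPM in Terc-/- libraries, against 578, 456 and 264 TPM in WT libraries, a change of -2.56 ± 0.39 (limma, adjusted p = 0.000234). Mmp3 (-1.81 ± 0.35), Mmp8 (-1.58 ± 0.36) and Timp3 (-1.31 ± 0.29) were also lower, and Mmp19 was higher (0.41 ± 0.10; adjusted p = 0.00309, 0.0121, 0.0094 and 0.0126). With TPM as deposited 0 were higher and 3 lower, and with a variance for each group 9 were called; leaving out gaiwei-marked replicate 2 left 2 and leaving out 519-marked replicate 1 or 2 left 3. The calls of Mmp8, Timp3 and Mmp19 were the ones lost in these cases (limma, adjusted p = 0.0536 to 0.0893), and that of Mmp19 was lost also without 519-marked replicate 3 (0.068). Mmp3 was not called with a pseudocount of 0.1 (adjusted p = 0.205) or in a fit of only these groups (0.0638). The summed macrophage markers lay at 65440 to 74710 TPM in Terc-/- libraries, against 44120 to 54830 TPM in WT libraries, the smooth muscle and myofibroblast markers at 277 to 324 TPM in Terc-/- libraries, against 460 to 503 TPM in WT libraries, and the stromal markers at 12.8 to 20.1 TPM in Terc-/- libraries, against 23.0 to 27.4 TPM in WT libraries. None of these lists had a marker called, and their part was not tested. Timp3 was lower in Terc-/- cells at 1 month in this comparison and in the unmarked one, whose libraries are separate, while Mmp13 in the unmarked comparison changed by -0.65 ± 0.39 and did not pass the test.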

How the data were processed

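Gene expression was measured by RNA-seq of oligo(dT)-selected RNA in 30 libraries, 3 in each of 10 groups taken from the sample titles. The deposited values are TPM: each column of the authors' 5 tables sums to the same total, as TPM values do. The submitters' processing notes name HTSeq and mm10 without versions; the sources used here give no aligner. Depth is therefore unknown and no counting interval is given.

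Symbols came from GENCODE mouse release 21, which matched 45143 of 45706 IDs. The members and gene lists were chosen with earlier results of these data known. TPM values were scaled by a trimmed mean (30% of ratios and 5% of levels trimmed), 12614 genes averaging 1 TPM or more were kept, and log2(scaled TPM + 1) was fitted with limma 3.58.1 (R 4.3.3, trend and robust, all 10 group means). A fold change on this scale understates the change of low genes. Benjamini-Hochberg adjustment over all tested genes was done for each of 17 comparisons, with calls at 0.05. Up to 10 called members with the largest change were named per comparison; others are named from lists or as values chosen after they were seen. Comparisons that share libraries (the 6-month or the 1-month WT large cells) are not independent. Alternatives were TPM as deposited, a pseudocount of 0.1, median-ratio scaling, a replicate block, no filter on low values, a variance for each group, only the groups compared, and leaving out each replicate; the last together with only the groups compared was added, for replicate 2 of the 6-month WT large cells, after seeing the data. The fit was tested on simulated data. Python 3.11.15, pandas 2.3.3, numpy 2.4.6 and matplotlib 3.10.9 made tables and figures. The level of 1 marker of another cell type is not reported here.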

Additional observations from a re-analysis of the deposited data

Results flagged for a closer look

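The genes below were flagged because an effect differed between a pair of ages or sets in a direct test of the difference (limma, Benjamini-Hochberg at 0.05). The change of WT large cells against 2 days was higher at 20 than at 6 months, on the log2 scale, by 3.86 for Adamts4, 2.82 for Adamts12, 2.16 for Mmp23, 2.14 for Timp3, 2.14 for Adamts2 and 2.08 for Mmp11. It was also higher by 1.95 for Adamts14, 1.74 for Adamts6, 1.52 for Adamts5, 1.44 for Mmp17, 1.39 for Mmp2, 1.21 for Mmp27 and 1.00 for Mmp14, and the difference was -1.48 for Mmp10.

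The change of Terc-/- against WT large cells was higher at 6 months than at 1 month by 3.38 for Mmp8, 2.76 for Mmp23, 2.55 for Mmp10, 2.28 for Mmp13, 2.15 for Mmp12, 2.01 for Timp3, 1.63 for Mmp2, 1.48 for Mmp27 and 1.11 for Mmp14. As the 1-month WT libraries have the female pattern, age and sex pattern cannot be told apart in these genotype differences. The change of 6- against 1-month Terc-/- cells differed between the 519-marked and the unmarked set by 1.78 for Mmp9, -0.89 for Adamts10 and -0.57 for Mmp19.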

How the results depend on the processing

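Every named change kept its direction under every alternative run. Of 149 named changes, 148 kept their call with median-ratio scaling, 143 with a pseudocount of 0.1, 139 with no filter, 136 with TPM as deposited, 111 with a variance for each group and 98 when only the groups compared were fitted; the causes were not tested. With TPM as deposited the difference in age change between 519-marked and unmarked Terc-/- cells gave 1 called gene (3 in the main analysis) and the marked genotypes 3 (5), and the median of all genes moved most for gaiwei-marked against unmarked WT cells, to -0.488. With a variance for each group, large cells against 2 days gave 8 at 6 months (15), the difference between ages 9 (14), WT large cells 0 at 6 against 1 month (4) and 1 at 20 against 6 months (12), Terc-/- against WT 0 at 6 months (11), the difference between genotype effects 0 (9) and the marked genotypes 9 (5). With only the groups compared the counts were 8 for large cells at 6 months, 14 for age at 2 days (9), 0 for 6 against 1 month, 3 for 20 against 6 months, 7 for genotype at 1 month (15), 0 for genotype at 6 months, 1 for the difference between genotype effects, 0 for age in unmarked Terc-/- cells (9) and 5 for the difference between sets. The numbers of genes at an unadjusted p under 0.05 beside the 0 counts stand in the report. That fit without replicate 2 of the 6-month WT large cells gave 17 for large cells at 6 months, 17 for the difference between ages, 0 for 6 against 1 month (limma, 4 at an unadjusted p under 0.05), 10 for 20 against 6 months, 3 for genotype at 6 months and 2 for the difference between genotype effects.

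Leaving out each replicate gave 14 to 15 calls for large cells at 6 months, 12 to 15 at 20 months and 13 to 15 for the difference; 4 to 6 for age at 2 days; 3 to 8 for 6 against 1 month, 7 to 14 for 20 against 1 month and 9 to 13 for 20 against 6 months. It gave 12 to 14 for genotype at 1 month, 9 to 14 at 6 months and 4 to 13 for the difference, 4 to 11 for age in unmarked and 12 to 15 in 519-marked Terc-/- cells and 1 to 3 for the difference. For marked against unmarked cells it gave 8 to 10 (Terc-/-, 1 month), 8 to 11 (Terc-/-, 6 months) and 17 to 19 (WT), and 2 to 6 for the marked genotypes.

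The deviations of same-numbered replicates from their group means correlated at -0.60 to 0.33. With 3 libraries in a group this cannot decide whether the numbers pair the samples, and the main fit used no pairing. With the replicate as a block, 17 genes were called for large cells at 6 months and 18 at 20 months, and 147 of the 149 named changes kept their call. The exceptions were Mmp10 in the difference between ages (adjusted p = 0.0508) and Mmp3 for genotype at 6 months (adjusted p = 0.0513). Depth being unknown, what it limits for the low genes could not be stated.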

Other observations

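Some of the genes below 1 TPM on average were tested only without the filter on low values. Mmp28, which encodes epilysin, averaged 1.67 ± 0.0557 TPM in 20-month WT large cells and 0.243 ± 0.0324 TPM at 2 days, a log2 change of 1.03 ± 0.13 (limma without the filter, adjusted p = 2.49e-06, n = 3 each), and no group other than the 20-month large cells averaged above 0.480 TPM. Mmp25, a membrane-anchored leukocyte protease gene, averaged 0.188 ± 0.226 TPM in 1-month Terc-/- large cells and 1.01 ± 0.321 TPM in WT large cells of that age, a log2 change of -0.72. In 20-month WT cells Mmp25 averaged 0.874 ± 0.386 TPM in large cells and 0.0407 ± 0.0172 TPM at 2 days, a log2 change of 0.74. Mmp1b, the chromosome 9 neighbour that overlaps Mmp12, averaged 0.646 ± 0.346 TPM in 519-marked 6-month Terc-/- cells and 0.106 ± 0.184 TPM in unmarked ones, a log2 change of 0.65; whether these reads come from Mmp12 was not tested. These genes were chosen after their values were seen, and at such levels a TPM value may rest on few reads.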
